A study of Mus musculus with 33 samples.

Results

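Sox9, Sox5 and Sox6, the transcription factor genes known as the chondrogenic trio, were taken by symbol from a gene count table of mouse embryonic stem cell (mESC) cultures. These are 3 of the 17120 genes in the table, and 15 other SOX genes are in it. The mESCs carried the ScxGFP reporter, a transgene in which regulatory sequence of the tendon gene Scx drives green fluorescent protein. They were taken to paraxial mesoderm (PM), the tissue that forms the somites, by culture day 6 (D6), using the BMP inhibitor LDN-193189 and the Wnt agonist CHIR. AGN 193109, a blocker of retinoic acid signalling, could also be added in that step, and the sources used here do not spell out whether the sequenced PM cultures received it. From D6 to D10 every culture received TGFβ1, the hedgehog agonist SAG and FGF2. To these was added CD1530, which activates the receptor RARγ and was given to induce tendon cells, or AGN 193109 (AGN), which lowers the activity of all retinoic acid receptors and was given to induce fibrocartilage cells. The 11 groups, of 3 libraries each, were PM at D6 and both treatments at each of 5 later times: D6.25 and D6.75, then D7.5, D8.5 and D10. The libraries came from whole monolayer cultures with no untreated control after D6, so fewer cells of a type and less RNA per cell cannot be told apart.

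SOX9 is the factor that commits mesenchymal cells to cartilage, and it acts early enough that cells expressing both Sox9 and Scx give rise to the junction of tendon and cartilage. SOX5 and SOX6 are close relatives of each other that lack an activation domain of their own. They bind beside SOX9 at enhancers of cartilage matrix genes such as Col2a1 and Acan and raise its activity there, and in the embryo their expression in cartilage depends on SOX9. All of them bind DNA through the HMG box. Signalling through retinoic acid receptors is known to hold back cartilage differentiation.

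On GRCm38, Sox9 lies at chr11:112782224-112787760 on the plus strand, in a gene body of 5537 bases with 1 coding transcript. Sox5 lies at chr6:143828425-144781977 and Sox6 at chr7:115470872-116038796, both on the minus strand, in gene bodies of 953553 and 567925 bases with 7 and 10 coding transcripts. Several antisense and intronic transcripts overlap Sox5 and Sox6 in the GENCODE annotation, and none of them has a row in the count table. Whether counting used the strand is not given in the sources used here, so reads from antisense transcripts in shared exons could not be told apart from those of Sox5 and Sox6. The coding sequence of the HMG box is shown for each gene because it is the part the members share and the part in which reads could be confused. Sequences run 5′ to 3′ along the coding strand, and capitals mark bases that differ from Sox5.
Sox9 HMG box: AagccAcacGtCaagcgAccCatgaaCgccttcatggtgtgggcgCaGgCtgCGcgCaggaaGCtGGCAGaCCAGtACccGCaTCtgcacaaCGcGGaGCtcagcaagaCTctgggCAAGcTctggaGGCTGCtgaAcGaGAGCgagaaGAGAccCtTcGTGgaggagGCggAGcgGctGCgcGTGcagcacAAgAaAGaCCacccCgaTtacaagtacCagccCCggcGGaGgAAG
Sox5 HMG box: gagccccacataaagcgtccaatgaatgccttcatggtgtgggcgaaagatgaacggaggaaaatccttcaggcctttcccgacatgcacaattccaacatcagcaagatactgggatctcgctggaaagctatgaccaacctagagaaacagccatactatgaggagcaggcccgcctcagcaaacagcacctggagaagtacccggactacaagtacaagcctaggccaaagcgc
Sox6 HMG box: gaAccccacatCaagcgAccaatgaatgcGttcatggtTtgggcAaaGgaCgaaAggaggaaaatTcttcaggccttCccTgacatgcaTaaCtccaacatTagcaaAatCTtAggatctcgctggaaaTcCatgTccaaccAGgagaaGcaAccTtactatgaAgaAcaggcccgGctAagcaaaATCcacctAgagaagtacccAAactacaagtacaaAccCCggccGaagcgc
Each stretch is 237 bases long and is split by 1 intron. In Sox9 the exons cover chr11:112782888-112783015 and chr11:112783809-112783917. In Sox5 they cover chr6:143841174-143841288 and chr6:143835291-143835412, and in Sox6 chr7:115489663-115489777 and chr7:115486643-115486764, so Sox5 and Sox6 have the intron after the same base. Sox5 and Sox6 were identical at 196 of the 237 bases (82.7%), and 74 of their 79 codons encoded the same residue. Sox9 was identical to Sox5 at 61.2% and to Sox6 at 57.4% of bases. The longest run of identical bases between coding transcripts of Sox5 and Sox6 was 23 bases, and between those of Sox9 and Sox6 it was 26 bases when both strands were searched, against reads of 150 bases. No whole read could therefore be shared between members.

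The 250 bases before annotated starts were searched for the SOX-type motif AACAAT and for the nuclear receptor half-site AGGTCA, on both strands, in RefSeq promoter windows on GRCm38.p6. Sox5 has 1 window, Sox6 has 6 and Sox9 has none, so Sox9 was not searched. The Sox5 window lies inside the gene body, far from its 5′ end at base 144781977, and that end was not searched. Both Sox6 windows shown also lie inside the gene body. The windows shown are that of Sox5 and the Sox6 windows that hold a match and overlap no exon of the gene, with matches in capitals.
Sox5, chr6:143947107-143947356, minus strand: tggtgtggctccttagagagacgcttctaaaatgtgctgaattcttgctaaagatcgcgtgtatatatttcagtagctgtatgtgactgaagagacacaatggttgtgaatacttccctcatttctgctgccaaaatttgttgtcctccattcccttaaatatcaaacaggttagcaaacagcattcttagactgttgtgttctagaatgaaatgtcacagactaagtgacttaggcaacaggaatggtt
Sox6, chr7:116031048-116031297, minus strand: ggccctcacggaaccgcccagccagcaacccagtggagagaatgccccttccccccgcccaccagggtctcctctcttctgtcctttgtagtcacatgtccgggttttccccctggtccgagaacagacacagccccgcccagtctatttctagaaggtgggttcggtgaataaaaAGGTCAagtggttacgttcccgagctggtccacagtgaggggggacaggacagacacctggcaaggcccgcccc
Sox6, chr7:115824711-115824960, minus strand: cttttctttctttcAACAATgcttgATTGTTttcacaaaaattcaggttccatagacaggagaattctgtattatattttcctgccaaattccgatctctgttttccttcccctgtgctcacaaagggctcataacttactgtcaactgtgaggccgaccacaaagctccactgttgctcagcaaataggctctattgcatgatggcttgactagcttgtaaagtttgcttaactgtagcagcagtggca
The Sox5 window held neither motif. The first Sox6 window held AGGTCA starting 74 bases before the start, and the second held AACAAT 236 bases before the start and its reverse complement 225 bases before it. Another Sox6 window held AGGTCA in the reverse orientation, 199 bases before its start. AACAAT was found in 9.42% and AGGTCA in 14.0% of all 32851 windows. The motifs do not overlap, and a match is only a match of letters.

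Library totals ran from 17116084 to 22775275 counts, apart from AGN D8.5 replicate 1 with 38120841. Replicates of a group correlated at 0.993 to 0.998 across genes, and no pair agreed within sampling noise. CD1530 D6.75 replicate 1 stood apart from its group. Its 2 pairs had a chi-square per gene of 20.3 and 21.5, against 2.31 for the other pair of that group and at most 4.76 in other groups. The D6.75 differences and the CD1530 steps into and out of D6.75 include this library. The receptor ligands were checked on 6 known retinoic acid receptor targets (Rarb, Cyp26a1, Cyp26b1, Dhrs3, Stra8 and Hoxb1). Of these, 5 were higher in CD1530 than in AGN at D6.25 and 6 of 6 from D6.75 on, and their summed level at D10 was 824 to 829 counts-per-million (CPM, TMM-scaled) in CD1530 against 36.9 to 37.7 CPM in AGN. The PM cultures expressed the PM genes Tbx6 at 9.56 CPM and Msgn1 at 3.38 CPM, beside the pluripotency genes Pou5f1 at 701 CPM and Nanog at 466 CPM. All 5 PM markers (Tbx6, Msgn1, Hes7, Dll1 and Rspo3) summed to 33.7 to 35.4 CPM in PM. Their sum at D10 was 35.7 to 41.7 CPM in CD1530 and 41.7 to 49.1 CPM in AGN, so it was not highest in PM. Most single markers fell: against PM, 3 of the 5 were called lower and 1 higher in each condition at D10. The median log2 fold change was -0.85 in CD1530 and -1.89 in AGN. Of all 17120 genes, 6829 in CD1530 and 6923 in AGN were called lower, and 7408 and 7115 higher. Msgn1 was at or under 3 counts in every D10 library. At D10, 6 tendon markers summed to 4411 to 4482 CPM in CD1530 and 6610 to 6979 CPM in AGN, and 6 cartilage markers to 166 to 174 and 2987 to 3113 CPM. Much of the gap in the tendon sum came from Fmod, which averaged 434 CPM in CD1530 and 2087 CPM in AGN. Fmod is also in the list of known targets of the trio used below.

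Sox9 was low in PM cells and rose 13.1-fold in CD1530 and 14.0-fold in AGN by D6.25. By D10 it had risen further in AGN, and in CD1530 it fell after D7.5. Its PM libraries held 7.08, 6.71 and 5.76 CPM. At D6.25 it stood at 87.9, 88.3 and 81.7 CPM in CD1530 and at 93.3, 88.0 and 93.4 CPM in AGN, with libraries of the conditions overlapping. At D6.75 the CD1530 libraries (88.7, 86.1 and 89.9 CPM) all lay below the AGN libraries (104, 98.8 and 107 CPM). By D7.5 they overlapped again, at 96.4, 106 and 97.9 CPM in CD1530 and 103, 107 and 108 CPM in AGN. From then on the conditions were apart. At D8.5 Sox9 was at 76.2, 79.1 and 77.2 CPM in CD1530 and at 118, 107 and 117 CPM in AGN. At D10 it was at 69.4, 70.7 and 66.9 CPM in CD1530 and at 151, 144 and 133 CPM in AGN, the highest of the 11 groups. The lowest induced library, at 66.9 CPM, was still far above every PM library.

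Sox5 followed another course, with an early peak in both conditions and a later rise in AGN. The PM libraries held 1.05, 0.992 and 1.51 CPM, which are 21 to 28 counts. At D6.25 it was at 14.3, 13.5 and 16.2 CPM in CD1530 and at 17.2, 14.2 and 17.0 CPM in AGN, which overlap. The peak came at D6.75, with 15.0, 16.5 and 18.3 CPM in CD1530 and 21.5, 22.5 and 20.0 CPM in AGN. At D7.5 both conditions had dropped, to 10.2, 10.0 and 9.84 CPM in CD1530 and to 11.9, 12.8 and 11.2 CPM in AGN. Libraries of the conditions were already apart at D6.75 and D7.5, though the D7.5 difference was not called, and the gap widened after D7.5. At D8.5 the CD1530 libraries held 6.31, 6.28 and 5.90 CPM and the AGN libraries 10.6, 9.32 and 11.8 CPM. At D10 CD1530 stayed at 5.25, 5.56 and 5.96 CPM while AGN returned to 17.6, 15.7 and 15.0 CPM, close to its level at D6.25.

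Sox6 rose more slowly than the other members and ended with the widest gap. It began at 3.45, 2.55 and 3.02 CPM in PM. At D6.25 it was at 9.30, 9.61 and 8.78 CPM in CD1530 and at 9.47, 9.86 and 7.99 CPM in AGN, so the conditions overlapped. At D6.75 the AGN libraries were tightly grouped (17.3, 17.5 and 17.2 CPM) and the CD1530 libraries were not (10.9, 15.3 and 15.6 CPM), with replicate 1 the low library. At D7.5 the level was 20.3, 17.7 and 21.6 CPM in CD1530 and 21.3, 23.0 and 22.6 CPM in AGN, the peak of CD1530. The fall in CD1530 was steep after that. At D8.5 Sox6 was at 9.16, 11.1 and 10.6 CPM in CD1530 and at 24.0, 21.7 and 23.2 CPM in AGN. At D10 it was at 6.21, 5.78 and 5.34 CPM in CD1530, below its D6.25 level, and at 32.2, 30.5 and 34.9 CPM in AGN, its highest.

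**Figure D1:**
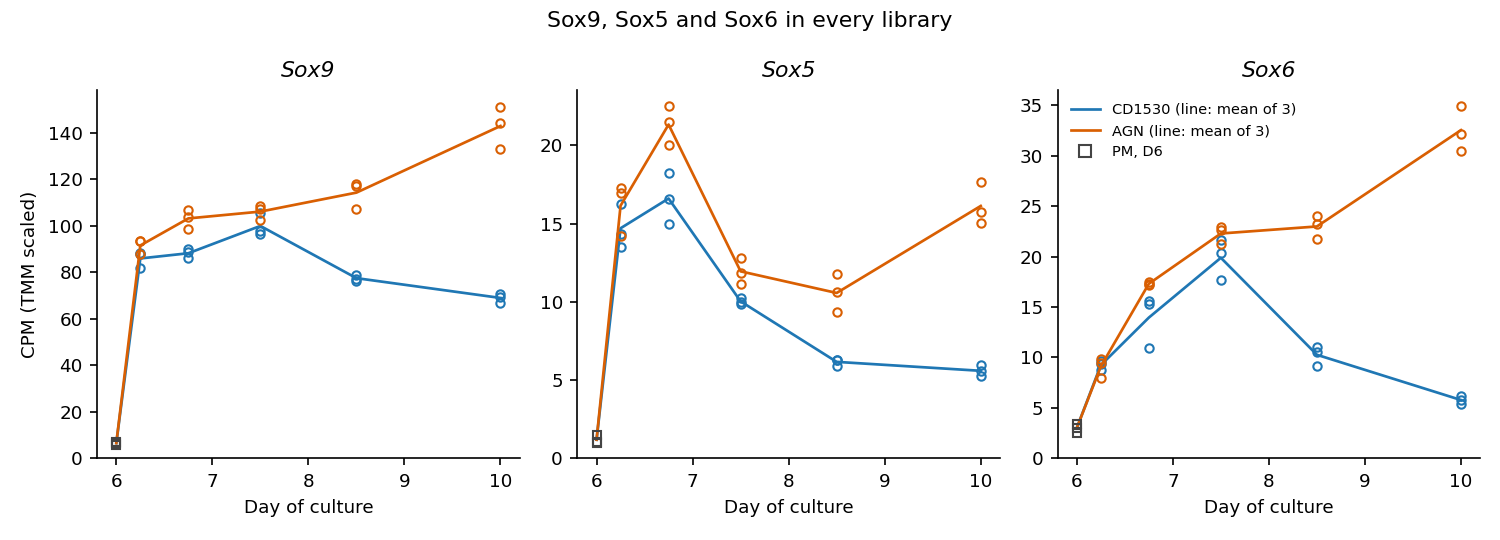
Sox9, Sox5 and Sox6 in every library (TMM-scaled CPM, linear axes from 0) against the day of culture, with circles for libraries, squares for PM and lines through the means of 3. The AGN circles lie above all CD1530 circles for each gene at D6.75, D8.5 and D10, and Sox5 has a peak at D6.75 that Sox9 and Sox6 do not have.

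In the order of the 11 group means, Sox9 and Sox6 both ran from AGN D10 at the top (143 ± 9.17 and 32.5 ± 2.25 CPM, SD, n = 3) to CD1530 D10 and PM at the bottom. CD1530 D10 averaged 69.0 ± 1.94 CPM for Sox9 and 5.78 ± 0.44 CPM for Sox6, and PM 6.52 ± 0.68 and 3.00 ± 0.45 CPM. Sox5 was ordered differently, with AGN D6.75 first (21.3 ± 1.25 CPM) and AGN D10 (16.1 ± 1.35 CPM) in the fourth place, where it overlapped AGN D6.25 and CD1530 D6.25. Of the 10 neighbouring places in each order, 5 overlapped for Sox9, 6 for Sox5 and 5 for Sox6. For Sox9 the overlapping neighbours were AGN D8.5 to CD1530 D7.5 and AGN D6.25 to CD1530 D6.25. For Sox5 they ran from CD1530 D6.75 to CD1530 D6.25, from AGN D7.5 to CD1530 D7.5, and from CD1530 D8.5 to CD1530 D10. For Sox6 they were AGN D8.5 to CD1530 D7.5 and CD1530 D6.75 to AGN D6.25. Across the 11 group means of log2(CPM + 1), Pearson's r was 0.87 between Sox9 and Sox5 (Spearman's rho 0.57), 0.81 between Sox9 and Sox6 (0.93) and 0.72 between Sox5 and Sox6 (0.44), a description over groups that share the large step from PM.

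Divided by the length of the longest coding transcript, Sox9 was the highest of the trio in every group. At D10 in AGN it reached 34.6 CPM per kilobase, against 3.75 for Sox6 and 2.23 for Sox5. In CD1530 at D10 it was at 16.7 CPM per kilobase, against 0.77 for Sox5 and 0.67 for Sox6. Divided by the union of all annotated exons, which is longer for Sox5 and Sox6, their levels at D10 in AGN were 1.12 and 2.19 CPM per kilobase. On the same union scale they were both 0.39 in CD1530.

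The comparison of CD1530 with AGN at each time asked when the members came to differ between cultures driven towards tendon and towards fibrocartilage. Differences are log2 fold changes of CD1530 against AGN with the standard error (SE), tested by the edgeR quasi-likelihood F test on all 17120 genes, and a gene was called at a Benjamini-Hochberg adjusted p below 0.05. At D6.25 none of the 3 members was called, against 1.92% of all genes, and the intervals of the differences were narrow. The 95% confidence interval was -0.19 to 0.01 for Sox9, -0.32 to 0.05 for Sox5 and -0.21 to 0.25 for Sox6, with adjusted p of 0.48, 0.63 and 0.98. DESeq2 called none of them either. Unadjusted p was above 0.05 for each.

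At D6.75 all 3 were lower in CD1530, where 18.0% of genes were called and 10.0% called lower. The difference was -0.23 (SE 0.048, adjusted p = 0.00053) for Sox9, -0.36 (SE 0.087, adjusted p = 0.0020) for Sox5 and -0.31 (SE 0.097, adjusted p = 0.020) for Sox6. Libraries of the conditions did not overlap for any of the 3, as for 26.3% of all genes at that time. The Sox6 call rested on single libraries. Without CD1530 replicate 1 it was -0.16 (adjusted p = 0.24), and without AGN replicate 1 or AGN replicate 2 the adjusted p was 0.053 and 0.060. With only the libraries of that time in the fit, adjusted p was 0.051 for Sox9 and 0.22 for Sox6.

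At D7.5 none of the 3 was called, against 26.9% of genes. The differences were -0.09 (95% confidence interval -0.18 to 0.01) for Sox9, -0.26 (-0.46 to -0.05) for Sox5 and -0.17 (-0.35 to 0.02) for Sox6. Their adjusted p was 0.20, 0.056 and 0.19, DESeq2 called none, and 1 of 3, Sox5, had an unadjusted p below 0.05. Libraries were apart for Sox5 alone among the members, and for 42.5% of all genes. Without AGN replicate 3 the adjusted p of Sox5 was 0.047.

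At D8.5 and D10 all 3 were lower in CD1530, and the order of the differences was Sox6, Sox5, Sox9. At D8.5, when 40.0% of genes were called and 19.6% called lower, Sox9 differed by -0.56 (SE 0.049, adjusted p = 1.25e-12), Sox5 by -0.78 (SE 0.11, adjusted p = 2.69e-07) and Sox6 by -1.17 (SE 0.10, adjusted p = 8.32e-13). At D10, when 46.6% were called and 24.0% called lower, Sox9 differed by -1.05 (SE 0.050, adjusted p = 2.97e-21), Sox5 by -1.53 (SE 0.11, adjusted p = 3.70e-15) and Sox6 by -2.49 (SE 0.11, adjusted p = 2.44e-22). In linear terms the CD1530 level at D10 was 0.483 of the AGN level for Sox9, 0.347 for Sox5 and 0.178 for Sox6. The 95% confidence intervals at D10, -1.15 to -0.95, -1.75 to -1.30 and -2.71 to -2.27, did not overlap between members. No library of CD1530 reached any library of AGN at either time, as for 51.4% of all genes at D8.5 and 57.0% at D10. At D6.25, 21.1% of all genes were apart in this way and no member was.

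**Figure D2:**
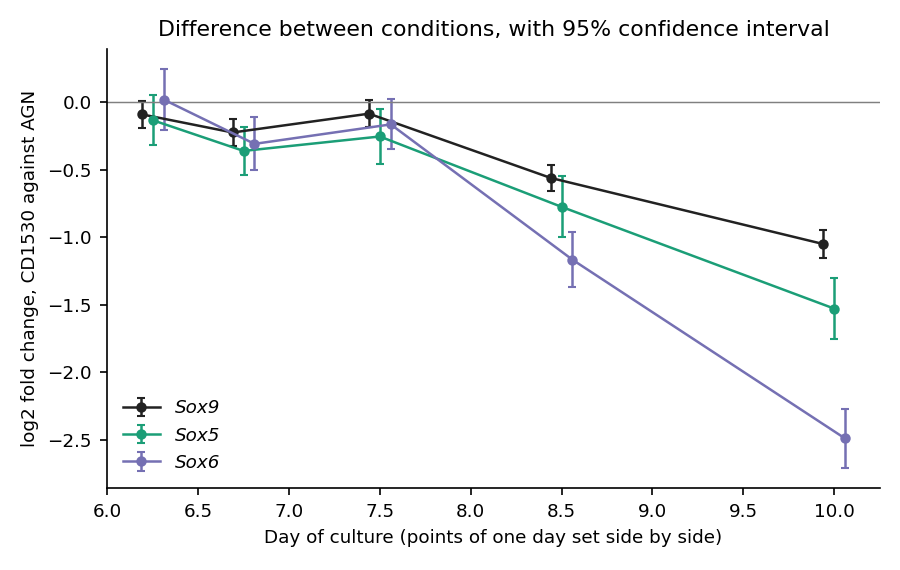
Difference between CD1530 and AGN (log2 fold change) for each member against the day of culture, with bars for the 95% confidence interval of the edgeR fit. The points lie between -0.36 and 0.02 up to D7.5, with a dip for each member at D6.75. They then fall, to -1.05 for Sox9, -1.53 for Sox5 and -2.49 for Sox6 at D10.

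Within each condition the first step, from PM to D6.25, raised all 3 members. It raised Sox9 by 3.71 (SE 0.068) in CD1530 and 3.81 (SE 0.068) in AGN, Sox5 by 3.64 (SE 0.15) and 3.78 (SE 0.14), and Sox6 by 1.62 (SE 0.14) and 1.6 (SE 0.14) on the log2 scale. Of all genes, 34.5% were called higher in CD1530 and 35.0% in AGN at this step. Both conditions share the PM libraries. From D6.25 to D6.75 all 3 rose in AGN, by 0.17 (Sox9), 0.40 (Sox5) and 0.93 (Sox6), where 43.7% of genes were called. In CD1530, where 45.9% were called, Sox6 rose by 0.60 (SE 0.10, adjusted p = 8.66e-06), and Sox9 and Sox5 were not called (0.04 and 0.18, adjusted p = 0.56 and 0.11). Sox5 was called in that step without CD1530 D6.25 replicate 3 (0.25, adjusted p = 0.040) or without CD1530 D6.75 replicate 1 (0.24, adjusted p = 0.027).

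From D6.75 to D7.5 Sox5 and Sox6 went opposite ways in both conditions. Sox5 fell by 0.73 (SE 0.095, adjusted p = 5.77e-08) in CD1530 and by 0.84 (SE 0.092, adjusted p = 1.10e-09) in AGN. Sox6 rose by 0.51 (SE 0.095, adjusted p = 3.99e-05) and by 0.37 (SE 0.093, adjusted p = 0.0021). Sox9 rose by 0.18 (SE 0.048, adjusted p = 0.0032) in CD1530 and was not called in AGN (0.04, adjusted p = 0.58). The share of genes called in this step was 34.2% in CD1530 and 30.3% in AGN.

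From D7.5 to D8.5 the members fell together in CD1530, Sox9 by 0.37 (SE 0.050), Sox5 by 0.70 (SE 0.11) and Sox6 by 0.95 (SE 0.10), with 36.5% of genes called. In AGN none of them was called, against 42.1% of genes. The changes there were 0.11 for Sox9 (adjusted p = 0.066), -0.18 for Sox5 (adjusted p = 0.15) and 0.05 for Sox6 (adjusted p = 0.71), with an unadjusted p below 0.05 for 1 of them, Sox9, and no call by DESeq2. Without AGN D8.5 replicate 2, Sox9 was called in AGN (0.15, adjusted p = 0.018). From D8.5 to D10 all 3 rose in AGN, by 0.32 (SE 0.048), 0.61 (SE 0.097) and 0.50 (SE 0.087) in the order Sox9, Sox5, Sox6, with 59.4% of genes called. In CD1530, where 57.3% were called, Sox9 fell by 0.17 (SE 0.051, adjusted p = 0.0047) and Sox6 by 0.83 (SE 0.13, adjusted p = 4.43e-07), and Sox5 was not called (-0.14, adjusted p = 0.35). At D10 against PM all 3 were called higher in both conditions, as were 43.3% of genes in CD1530 and 41.6% in AGN. The level of Sox9 was then 10.5 times that of PM in CD1530 and 21.8 times in AGN, that of Sox5 4.74 and 13.7 times, and that of Sox6 1.93 and 10.8 times.

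Whether the difference between conditions changed with time was tested as an interaction. Over all 5 time points together (4 degrees of freedom) it was called for each member, with adjusted p of 1.43e-15 for Sox9, 6.34e-10 for Sox5 and 1.43e-17 for Sox6, and for 48.8% of genes. By single steps, no member was called from D6.25 to D6.75 or from D6.75 to D7.5, against 4.82% and 9.00% of genes. Unadjusted p was below 0.05 for 1 member in each, Sox6 and then Sox9, and DESeq2 called none. All 3 were called from D7.5 to D8.5, against 11.5% of genes, and from D8.5 to D10, against 26.8%. The D7.5 to D8.5 interaction of Sox5 (-0.52, SE 0.15, adjusted p = 0.017) had an adjusted p of 0.051 without AGN D7.5 replicate 3 and 0.058 without AGN D8.5 replicate 3.

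The proportions of the members to each other were read within each library, where no scaling enters. For each 100 counts of Sox9, CD1530 held 10.7 counts of Sox6 at D6.25, 20.0 at D7.5 and 8.37 ± 0.52 (SD, n = 3) at D10, and AGN held 9.97, 21.0 and 22.9 ± 2.91. The D10 libraries ranged from 7.98 to 8.96 in CD1530 and from 21.1 to 26.2 in AGN. Sox6 thus lost ground to Sox9 in CD1530 after D7.5 and held it in AGN. For Sox5 the counts per 100 of Sox9 were highest at D6.75, at 18.8 ± 1.74 in CD1530 and 20.7 ± 2.03 in AGN, and were 8.11 ± 0.70 and 11.3 ± 0.38 at D10. The difference in log2 ratio between CD1530 and AGN at D10 was -1.44 for Sox6 to Sox9, -0.97 for Sox6 to Sox5 and -0.47 for Sox5 to Sox9, with libraries apart in each. With 3 libraries against 3 the two-sided exact permutation test cannot go below p = 0.1, which each of these reached (adjusted p = 0.25 over 15 comparisons). At D6.25, D6.75 and D7.5 the conditions overlapped for all 3 ratios. In PM, Sox6 was at 46.3 ± 7.43 and Sox5 at 18.6 ± 6.55 counts per 100 of Sox9.

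**Figure D3:**
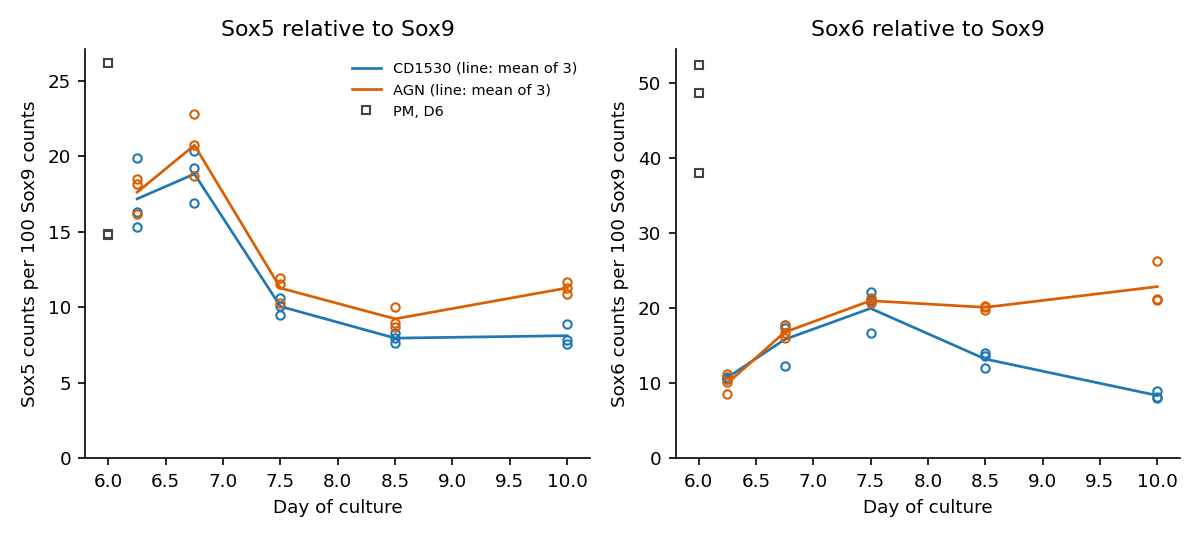
Sox5 and Sox6 counts per 100 Sox9 counts in each library against the day of culture, with circles for libraries, squares for PM and lines through the means of 3. Sox6 relative to Sox9 falls to 8.37 in CD1530 and stays at 22.9 in AGN at D10, and Sox5 relative to Sox9 drops after D6.75 in both.

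Other cells that express members of the trio were followed by marker lists. At D6.25 the 7 notochord markers summed to 812 to 840 CPM in CD1530 and 856 to 879 CPM in AGN, against 260 to 280 CPM in PM. In that step, in which the trio rose, 6 of the 7 were called higher and 1 lower in each condition. Of all genes, 34.5% in CD1530 and 35.0% in AGN were called higher. At D6.75, when the trio was lower in CD1530, 6 of the 7 were called lower there (median -0.68, against 10.0% of all genes), with sums of 478 to 525 CPM against 865 to 894 CPM in AGN. Skeletal muscle markers at D6.75 summed to 19.8 to 23.5 CPM in CD1530 and 32.4 to 34.9 CPM in AGN, with 2 of 6 called lower. At D10 the share of all genes called was 22.7% higher and 24.0% lower. Of 8 neural progenitor and neuron markers, 7 were called higher and 1 lower in CD1530, with a summed level of 811 to 824 CPM against 505 to 539 CPM in AGN. Of the notochord markers, 5 were then lower in CD1530, among them T (0.50 against 27.1 CPM), Noto (0 counts against 2.33 CPM) and Foxa2 (4.28 against 14.1 CPM). Krt8 and Krt18 were higher, so the summed notochord level was 156 to 164 CPM in CD1530 and 167 to 179 CPM in AGN. Neural crest and glia markers summed to 17.1 to 19.2 and 14.1 to 18.1 CPM over 5 of 7 in the table, with 2 called higher and 1 lower. Skeletal muscle markers summed to 5.81 to 6.7 and 7.77 to 8.79 CPM over 6 of 8 in the table, with 1 called higher and 3 lower. Of the muscle markers, Myod1 was at or under 3 counts in every D10 library. Erythroid and blood markers summed to 7.27 to 7.59 and 10.4 to 12.1 CPM, with 3 of 6 called lower, a count that was 1 without AGN D10 replicate 1 and 2 when any single other D10 library was left out. The part of these cells in the differences of the trio was not tested.

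Regulators of the sclerotome and paraxial mesoderm, which act upstream of or beside Sox9 in the axial skeleton, were mostly lower in CD1530 at D10. Of 16 in the list, 12 were called lower, 2 higher and 2 not at all, against 24.0% of all genes called lower and 22.7% higher. The median difference was -0.86, against -0.02 for all genes tested. Pax1, a sclerotome factor induced by hedgehog signals, averaged 7.70 ± 0.70 CPM (SD, n = 3) in CD1530 and 16.8 ± 1.21 CPM in AGN, a difference of -1.13 (SE 0.11, adjusted p = 4.00e-11). Its relative Pax9 averaged 6.29 ± 0.50 and 16.1 ± 0.76 CPM (-1.35, SE 0.11). Nkx3-2, a repressor that favours cartilage in the sclerotome, averaged 5.73 and 16.2 CPM (-1.50, SE 0.12), and it was already lower at D6.75 (-1.20, adjusted p = 1.72e-08). Meox2, a homeobox gene of the somite, differed most (-1.86, SE 0.15). Hhip, a hedgehog target that binds the ligand, averaged 47.6 and 130 CPM (-1.45, SE 0.077). The exceptions were Tcf15 and Meox1, called higher, and Uncx and Foxf1, not called. At D6.25, 14 of 16 were not called between conditions, where 1.92% of all genes were called. The 2 called, Meox1 (0.82, adjusted p = 6.17e-13) and Foxc1 (0.28, adjusted p = 0.0013), were higher in CD1530. In the step from PM to D6.25, 13 of 16 in CD1530 and 14 of 16 in AGN were called higher, against 34.5% and 35.0% of all genes.

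Most cartilage matrix genes and other known targets of the trio were lower in CD1530 at D10, some by more than any member of the trio and some by less. Of the 22 listed, 20 are in the table, and at D10 18 were called lower and 2 higher in CD1530, against 24.0% and 22.7% of all genes, with a median difference of -2.35, close to that of Sox6 (-2.49). Col11a1 (-0.85), Matn3 (-0.80) and Papss2 (-1.04) differed by less. Col2a1, the main collagen of cartilage, averaged 145 ± 4.38 CPM in CD1530 and 2497 ± 69.4 CPM in AGN (-4.10, SE 0.048, adjusted p = 2.72e-42). Acan, the aggregating proteoglycan of cartilage, averaged 4.66 ± 0.67 and 215 ± 11.9 CPM (-5.53, SE 0.090). Hapln1, the link protein that joins aggrecan to hyaluronan, averaged 0.86 ± 0.31 and 38.9 ± 0.89 CPM (-5.49, SE 0.14), and Chad, a small leucine-rich matrix protein, 3.86 and 108 CPM (-4.80, SE 0.12). Cnmd, which encodes the cartilage matrix protein chondromodulin, averaged 0.14 CPM in CD1530, no more than 3 counts in any library, and 4.10 CPM in AGN. Cnmd, 1 of the 18 called lower, has a row in the table only through AGN D10. Its next highest group mean was 0.37 CPM (AGN D8.5). Col27a1 and Fgfr3 were the members called higher in CD1530 (0.73 and 1.12).

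The targets did not all follow the trio in time. At D6.25 19 of 20 were not called, where 1.92% of all genes were called, and the median was 0.06. Col9a1 was called higher in CD1530 then (0.25, adjusted p = 0.020). At D6.75, 7 were called lower and 3 higher, where 18.0% of all genes were called and 10.0% called lower. Hapln1 was among the higher, at 41.4 ± 2.7 CPM in CD1530 against 20.2 ± 0.80 CPM in AGN (1.04, SE 0.082, adjusted p = 2.93e-13). By D8.5 16 were lower and 2 higher, with a median of -1.14, where 40.0% of all genes were called and 19.6% called lower. Acan was not called at D7.5 (-0.26, adjusted p = 0.10) and differed by -2.19 at D8.5. Col2a1 had been lower in CD1530 since D6.75 (-0.49, adjusted p = 4.34e-12). In CD1530 its mean was 85.3 CPM at D6.25, 386 CPM at D7.5 and 145 CPM at D10, with its highest point on the day on which Sox9 and Sox6 were highest there. The 6 tendon markers, for comparison, had 1 called higher, 4 lower and 1 not called in CD1530 at D10, against 22.7% and 24.0% of all genes. Scx was at 858 CPM against 1223 CPM in AGN. Fmod is in both the tendon list and the list of targets, so the 2 lists are not separate.

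Factors that act beside or after the trio in growth plate cartilage were mixed at D10. Of 16, 8 were called lower, 5 higher and 3 not, against 24.0% and 22.7% of all genes, with a median of -0.27. Dlx5, a homeobox factor of maturing chondrocytes and bone, averaged 5.03 ± 0.55 CPM in CD1530 and 58.8 ± 0.86 CPM in AGN (-3.54, SE 0.15). Its neighbour Dlx6 was at 0.14 and 3.25 CPM, and Sp7, the osteoblast factor osterix, at 0.41 and 3.99 CPM (-3.25, SE 0.26). Dlx6, 1 of the 8 called lower, has a row in the table only through AGN D10. Its next highest group mean was 0.25 CPM (AGN D8.5). Barx2, a homeobox gene of developing cartilage and muscle, went the other way, at 1.58 and 0.28 CPM (2.44, SE 0.39).

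**Figure D4:**
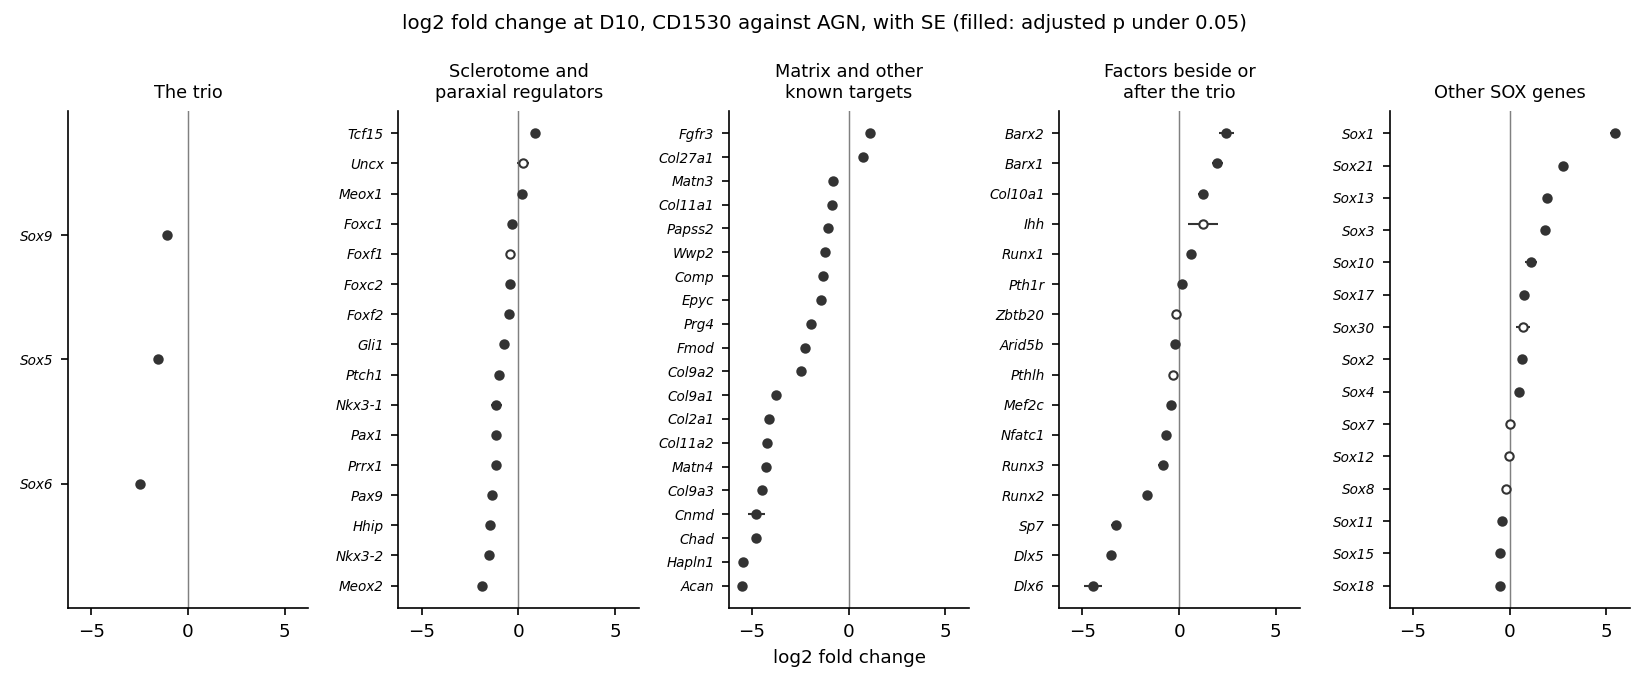
Log2 fold change of CD1530 against AGN at D10 with its SE for the trio and for the members of the 4 gene lists, filled where the adjusted p was below 0.05. The points of the trio and of most targets lie left of 0, and most of the called SOX genes lie right of 0.

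Of the other SOX genes, 15 of the 17 listed are in the table, and most of those called moved opposite to the trio. At D10, 8 were called higher in CD1530, 3 lower and 4 not, against 22.7% of all genes called higher and 24.0% lower, with a median of 0.66. Sox13, the remaining gene of the SoxD group to which Sox5 and Sox6 belong, was at 94.8 CPM in PM, and at D10 at 39.8 ± 1.59 CPM in CD1530 and 10.2 ± 1.69 CPM in AGN (1.96, SE 0.079, adjusted p = 1.42e-23). It was already higher in CD1530 at D6.75 (0.30, adjusted p = 0.00019). Of the SoxE group to which Sox9 belongs, Sox10, a neural crest factor, was at 1.77 and 0.81 CPM at D10 (1.12, SE 0.29), and Sox8 was not called (6.07 and 6.79 CPM, adjusted p = 0.33).

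The SoxB genes of neural progenitors were higher in CD1530 at D10. Sox1 was at 16 ± 1.82 CPM against 0.37 ± 0.17 CPM (5.43, SE 0.24), Sox21 at 15.1 against 2.23 CPM (2.76, SE 0.20), Sox3 at 24.8 against 6.93 CPM (1.84, SE 0.10) and Sox2 at 77.9 against 49.2 CPM (0.66, SE 0.048). Sox4 and Sox11, the SoxC factors of progenitor cells that also act in the skeleton, parted: Sox4 was higher in CD1530 (261 against 184 CPM, 0.51) and Sox11 lower (178 against 231 CPM, -0.38). Of the endothelial SoxF genes, Sox17 was higher (4.49 against 2.67 CPM, 0.75, with libraries overlapping) and Sox18 lower (5.31 against 7.59 CPM, -0.51). Sox15 was lower (2.98 against 4.14 CPM, -0.47), a call lost without CD1530 D10 replicate 3 (adjusted p = 0.055) or AGN D10 replicate 1 (adjusted p = 0.095). Sox12, Sox7 and Sox30 were the other SOX genes not called.

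The genes whose 11 group means of log2(CPM + 1) were most like those of each member were found among genes with a mean of at least 10 CPM. For Sox9 they were Klf7 (Pearson's r = 0.99), Fam149a (0.99), Dpy19l3 (0.98), Cped1 (0.98) and Ctdspl (0.98). All 5 were lower in CD1530 at D10, by -0.24 to -0.56, where 24.0% of all genes were called lower. Each differed by less than Sox9. For Sox5 they were Slco3a1 (0.97), Serpinf1 (0.97), Kif26a (0.97), Car4 (0.96) and Flrt3 (0.96), with D10 differences from -0.67 for Serpinf1 to -2.62 for Car4. For Sox6 they were the cartilage collagen Col9a1 (0.96), Zic4 (0.95), Fbln2 (0.94), Col2a1 (0.94) and Rftn2 (0.93). Col9a1 averaged 12.5 and 170 CPM at D10 (-3.77), so the genes nearest to Sox6 included ones that differed more than it did. By Spearman's rank correlation 0, 2 and 3 of the 5 were kept for Sox9, Sox5 and Sox6. Points share the step from PM, and the likeness is a description over 11 means. Both D10 groups are among these means, so the direction of the chosen genes at D10 is no separate result.

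Genes within 1 Mb of a member went both ways at D10, and the counts called stand against 46.6% of all genes called at that time, so that they show nothing particular to these regions. Near Sox9, 3 of 9 were called: the long noncoding RNA 2610035D17Rik, 256 kb away, was lower in CD1530 with Sox9 (2.62 against 4.45 CPM, -0.77, adjusted p = 0.0010), and Cog1 (0.25) and Sdk2 (1.39) were higher. Near Sox5, 7 of 12 were called, among them C2cd5 (-0.24), Bcat1 (-0.17) and Gm15706 (-1.02), which were lower, and Gm7457 (1.04), Etnk1 (0.34) and Tuba3b (3.57), which were higher. Near Sox6, 7 of 15 were called. Calca, the calcitonin gene, was lower in CD1530 (1.49 against 13.8 CPM, -3.21, SE 0.14), as were Nucb2 (-0.51), Gm4366 (-0.26), Insc (-1.33) and Gm15500 (-0.12), while its neighbour Calcb (1.41 against 0.061 CPM) and Plekha7 (0.39) were higher. Gm15500 and Gm4366 are pseudogenes, whose reads could be split with other copies. Insc lost its call without CD1530 D10 replicate 3 (adjusted p = 0.098), AGN D10 replicate 1 (0.11) or AGN D10 replicate 3 (0.056), and Gm15500 without CD1530 D10 replicate 1 (0.055) or AGN D10 replicate 3 (0.066). The median difference was 0.00 near Sox9, -0.14 near Sox5 and -0.02 near Sox6.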

How the data were processed

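RNA of 33 mouse libraries was sequenced on an Illumina platform. The deposited table holds raw gene counts, which the authors made with STAR on GRCm38 and featureCounts. No column is unmapped to a sample. Libraries were grouped by the titles, and culture days follow the study, in which induction starts at D6. The study gives 3 biological replicates per group, and which mESC line gave each is not given in the sources used here.

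Counts were tested with edgeR 4.0.16 (R 4.3.3): TMM scaling, filterByExpr (0 of 17120 genes removed), a mean for each of 11 groups, robust quasi-likelihood F tests, and Benjamini-Hochberg adjustment over all genes within a contrast. CPM are TMM-scaled. Standard errors are the log2 fold change divided by the root of F. On simulated counts for 17086 genes, 154 of 200 changed genes were recovered, with 12 false calls. Same-numbered libraries were checked for shared deviations: the correlations ran from -0.068 to 0.033 over 15 pairs. No strong shared deviation was seen, and the main fit did not pair samples. The check cannot show whether same-numbered cultures shared a cell line. DESeq2 1.42.0, other scalings, filters, library subsets and leaving out each library were alternatives. Intervals cover the spread between these libraries.

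The members and lists were chosen with earlier results of these data known. Named genes are the trio, the 4 of each list with the largest called D10 difference, Col2a1, Acan, Pax1 and Pax9, every SOX gene called at D10, the 5 genes most like each member, and called genes within 1 Mb, of which 1 is not reported here. Other genes, such as list exceptions and markers, were named after their values were seen. Positions are from GENCODE M21, which held 17117 of the 17120 identifiers.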

Additional observations from a re-analysis of the deposited data

Results flagged for a closer look

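The response over time differed between CD1530 and AGN for each member, by a test of the difference itself. Over all 5 time points the interaction had an adjusted p of 1.43e-15 for Sox9, 6.34e-10 for Sox5 and 1.43e-17 for Sox6 (edgeR quasi-likelihood F test). It was called for 48.8% of all genes. From D7.5 to D8.5 the change in CD1530 minus the change in AGN was -0.48 for Sox9 (adjusted p = 1.96e-06), -0.52 for Sox5 (adjusted p = 0.017) and -1.0 for Sox6 (adjusted p = 6.00e-07) on the log2 scale. This step was called for 11.5% of all genes. Sox5 lost its call there without AGN D7.5 replicate 3 (adjusted p = 0.051) or AGN D8.5 replicate 3 (adjusted p = 0.058). From D8.5 to D10 the same difference between changes was -0.49 for Sox9 (adjusted p = 5.89e-07), -0.75 for Sox5 (adjusted p = 0.00038) and -1.32 for Sox6 (adjusted p = 7.30e-09). Of all genes, 26.8% were called in that step. For Sox9 and Sox6 the last step was a rise in AGN and a fall in CD1530, and every AGN library lay above every CD1530 library at D10. Libraries of the conditions were apart at D10 for 57.0% of all genes.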

How the results depend on the processing

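Of 1068 alternative values for the 66 tests of Sox9, Sox5 and Sox6, 1047 kept their direction and their side of 0.05, and 55 of the tests did so under every alternative run, the D8.5 and D10 differences among them. With DESeq2 size factors Sox5 at D7.5 was called (-0.27, adjusted p = 0.044), as it was with library size only (-0.27, adjusted p = 0.042) and with only the compared groups (-0.27, adjusted p = 0.025). With library size only, Sox5 from D7.5 to D8.5 in AGN was called (-0.27, adjusted p = 0.024) and Sox6 in that step turned to -0.040 (adjusted p = 0.75). That scaling moved the median of all genes by up to -0.15 (AGN D10 against PM). With only the compared groups, fewer libraries set the spread: at D6.75 Sox9 (-0.22, adjusted p = 0.051) and Sox6 (-0.30, adjusted p = 0.22) lost their calls, Sox9 from D6.75 to D7.5 in CD1530 lost its call (0.17, adjusted p = 0.086), and Sox9 from D7.5 to D8.5 in AGN gained one (0.11, adjusted p = 0.050). The counts of called genes in that fit were 804 against 329 at D6.25, 1236 against 3076 at D6.75, 5185 against 7853 and 2792 against 5854 for the CD1530 steps from D6.25 and D6.75, and 439 against 826 and 649 against 1541 for their interactions.

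Leaving out 1 library at a time, the value ranged from -0.067 to 0.077 for Sox6 at D6.25 (-0.013 without CD1530 D6.25 replicate 2), from -0.40 to -0.16 for Sox6 at D6.75, from -0.30 to -0.20 for Sox5 at D7.5, from 0.10 to 0.25 for Sox5 in CD1530 from D6.25 to D6.75, from 0.081 to 0.15 for Sox9 in AGN from D7.5 to D8.5, from -0.59 to -0.45 for the Sox5 interaction from D7.5 to D8.5, and from -0.0025 to 0.23 for the Sox6 interaction from D6.75 to D7.5. The genes called at D6.25 then numbered 196 to 276, and those of the interaction from D6.25 to D6.75 662 to 1301, the highest without CD1530 D6.75 replicate 1. Gm15500 lost its D10 call with library size only (adjusted p = 0.11). Erythroid markers called lower at D10 numbered 1 to 2 with 1 library left out and 1 with library size only, against 3, and pluripotency markers called higher 1 to 2, against 2. Of the 4 pluripotency markers, 1 was called lower in CD1530 at D10 and 1 was not called. Of all genes, 22.7% were called higher and 24.0% lower. The 4 markers summed to 151 to 158 CPM in CD1530 and 249 to 261 CPM in AGN. The cause of the shifts between fits was not tested.

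With the replicate block no call for the trio changed, and the D10 difference of Sox6 was -2.49. Sox5 in PM rests on 21 to 28 counts per library, which limits its fold over PM.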

Other observations

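Of the endothelial and endodermal SoxF genes, Sox17 had its highest group means at D6.25, and Sox17 and Sox18 differed between conditions at D6.75. Sox17 was at 0.97 CPM in PM, and at 67.5 CPM in CD1530 and 80.9 CPM in AGN at D6.25. At D6.75 it was at 33.7 ± 3.95 CPM (SD, n = 3) in CD1530 and 53.1 ± 4.92 CPM in AGN (log2 fold change -0.66, adjusted p = 1.80e-08). Sox18 was at 48.3 ± 5.35 CPM in CD1530 and 20.3 ± 1.34 CPM in AGN at D6.75 (1.25, adjusted p = 5.80e-14), and the difference had turned by D10 (-0.51, adjusted p = 0.0044). Sox7 was higher in CD1530 at D6.75, D7.5 and D8.5 (0.46, 0.58 and 0.69). Sox8, the relative of Sox9, changed sides between D7.5, when it was higher in CD1530 (0.66, adjusted p = 2.05e-06), and D8.5, when it was lower (-0.58, adjusted p = 3.97e-06).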
